A study of Homo sapiens with 6 samples.

Results

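This report describes 7 interferon-induced genes, SAMD9, SAMD9L, MX1, MX2, RSAD2, EIF2AK2 and XAF1, whose products restrict viruses or, for XAF1, promote apoptosis. They were taken by symbol from a table of 32896 genes, and all 7 were in it and passed the filter on low values. The set was selected from earlier results of the same contrast, so its differences between the groups are given as a description and were not tested. The samples were BHT101 cells, an established human anaplastic thyroid carcinoma line, transfected with a lipid reagent and harvested after 48 h. The control group received a control plasmid (3 libraries) and the SK4 group a plasmid for SK4 overexpression (3 libraries). SK4, also known as KCa3.1, is a calcium-activated potassium channel encoded by KCNN4, and the series asked which genes and splicing events lie downstream of it. All 6 libraries came from transfected cells. No untransfected library was analysed here, so what plasmid and lipid do by themselves cannot be told apart from the level of the line. The treatment label of control replicate 3 reads BHT102, whereas its cell line label and source name read BHT101. The labels do not state whether the replicates were separate cultures, so p-values measure the spread between these libraries, which may be technical.

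Type I and type III interferons bind receptors at the cell surface and start a signalling cascade. It brings transcription factors, IRF9 among them, to the interferon-stimulated response element, a short promoter sequence shared by many antiviral genes. The products of such genes block different steps of viral growth. MX1 and MX2 are dynamin-like GTPases that trap incoming viral particles, RSAD2 (viperin) makes a chain-terminating nucleotide, EIF2AK2 (PKR) is a kinase that stops translation on sensing double-stranded RNA, SAMD9 and SAMD9L restrict poxviruses and translation, and XAF1 opposes the apoptosis inhibitor XIAP. Carcinoma lines often express part of this program without infection.

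The promoters of 6 of the 7 genes were matched by symbol in RefSeq sequences (GRCh38.p14). MX2 was not matched. Each window of 300 bases ran from 250 before to 50 after an annotated start, and some genes had several. The core of the response element was searched as GAAANNGAA on both strands (TTCNNTTTC on the other), and overlapping matches were all kept. It was present in 6 of 10 windows and in 4 of the 6 genes. Of all 35116 promoter windows of the same length, 8.11% held it, and of all 27305 genes with a window, 9.86% had it in at least 1. Among 39 genes of a wider list of interferon-induced antiviral effectors, 27 held it. The stretches below are shown because they are the element through which the family is known to be induced, with the core in capitals, 5′ to 3′ on the strand of the gene.

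SAMD9, chr7:93118087-93118135, minus strand: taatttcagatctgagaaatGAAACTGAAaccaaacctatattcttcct

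MX1, chr21:41420549-41420597, plus strand: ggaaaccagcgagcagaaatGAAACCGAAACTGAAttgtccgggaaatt

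EIF2AK2, chr2:37156958-37157006, minus strand: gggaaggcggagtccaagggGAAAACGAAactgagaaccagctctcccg

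RSAD2, chr2:6865786-6865834, plus strand: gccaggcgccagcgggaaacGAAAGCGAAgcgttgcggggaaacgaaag

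RSAD2, second start, chr2:6877613-6877661, plus strand: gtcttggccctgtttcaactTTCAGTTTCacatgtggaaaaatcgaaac

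In MX1 the capitals hold 2 matches that overlap, the first beginning 11 bases after the annotated start. In RSAD2 the 2 windows hold the core in opposite orientations. MX1 had another match at a further start, not shown. The windows of SAMD9L and XAF1 did not contain these letters, which says nothing about other sequences or about binding.

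The libraries held an estimated 29700000 to 38500000 fragments, with control replicate 3 the shallowest. Of 11139 tested genes, KCNN4 alone was called (limma, Benjamini-Hochberg adjusted p = 8.83e-07), which is 0.00898% of them. Its level was 8.31, 8.26 and 8.52 FPKM (fragments per kilobase of gene, scaled to library depth) in control replicates 1 to 3 and 184.1, 147.7 and 169.2 FPKM in SK4 replicates 1 to 3, so the libraries carry the labels' difference. The exact two-sided permutation p was 0.1, the smallest that 3 against 3 libraries allow. Of the epithelial markers 6 of 6 passed the filter, with KRT19 averaging 236 FPKM. In contrast, 0 of 8 thyroid follicular genes reached it, so a thyroid origin cannot be read from these markers, and PAX8, the highest, averaged 0.35 FPKM. Leukocyte markers summed to 6.77 to 7.45 FPKM in controls, against 6.63 to 7.22 FPKM in the SK4 libraries. Those that passed the filter were CD14 (3.32 to 4.43 FPKM), CD68 (1.63 to 2.19 FPKM) and ITGAM (1.02 to 1.26 FPKM). The defining genes PTPRC and CD3E were at 0.04 FPKM or below in every library. Fibroblast markers summed to 22.5 to 27.6 and 23.5 to 31.9 FPKM, almost all of it LUM, with COL1A1 at 0.08 FPKM or below. Endothelial markers summed to 0.32 to 0.42 and 0.29 to 0.43 FPKM. Control replicate 3 and SK4 replicate 2 stood apart from the other libraries of their groups, as detailed below.

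Transcripts of all 7 genes were present in both groups, and the labels name no interferon or virus treatment. On the FPKM scale, which is per length, the mean over the 6 libraries was 21.1 for MX1, 13.4 for RSAD2, 6.56 for XAF1, 5.88 for EIF2AK2, 4.56 for SAMD9, 4.03 for MX2 and 2.85 for SAMD9L. MX1 lay above RSAD2, and RSAD2 above XAF1, with no overlap between libraries. Further down the order the ranges of neighbouring genes overlapped. SAMD9 was above MX2 in only 4 of 6 libraries, and those 2 genes cannot be ordered beyond their spread.

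**Figure D1:**
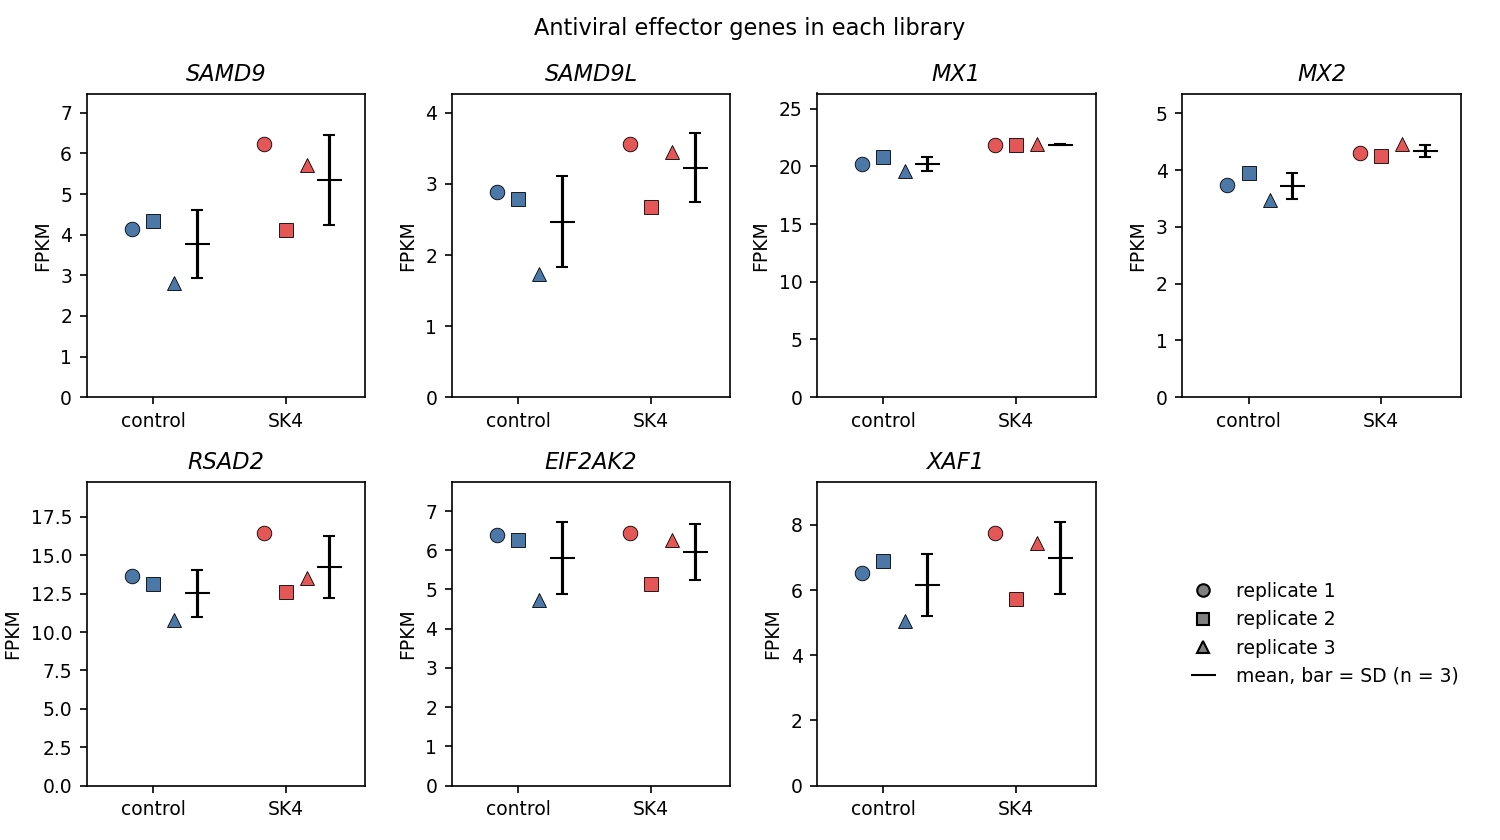
FPKM of the 7 genes in each library (y axis, from 0), with control libraries in blue and SK4 libraries in red, marker shape giving the replicate and the bar the mean with its SD (n = 3). The triangle of control replicate 3 is the lowest control in all 7 panels, the square of SK4 replicate 2 is the lowest SK4 library in all 7, and the groups are separate only for MX1 and MX2.

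The MX genes had the tightest values and were the only members whose groups did not overlap. MX1 (ENSG00000157601.15, chromosome 21, 41420304 to 41459214 in GRCh38) stood at 20.19, 20.79 and 19.64 FPKM in control replicates 1 to 3. In SK4 replicates 1 to 3 it was 21.88, 21.87 and 21.93 FPKM. All SK4 libraries were above all controls, and the SK4 values were within 0.06 FPKM of each other. The means were 20.2 ± 0.575 and 21.9 ± 0.0321 FPKM (SD, n = 3 each), a log2 fold change of 0.11 (SE 0.040), or 8.17% on the log2(FPKM + 0.5) scale. An SK4 spread of 0.147% of the mean is below the counting error of about 1.41% estimated for MX1 in its shallowest library. MX2 (ENSG00000183486.14, 41361943 to 41409390), the neighbouring gene on the same strand, held 3.74, 3.95 and 3.48 FPKM in the control libraries. The SK4 libraries held 4.30, 4.25 and 4.46 FPKM. Here too the 3 SK4 values lay above the 3 controls (log2 fold change 0.20, SE 0.067). Of all tested genes 3.53% had every SK4 library above every control library, beside 2 of the 7 members. These 2 were part of what the selection saw, and nothing is read from the count. The ratio of MX1 to MX2 was 5.26 to 5.64 in controls, against 4.92 to 5.15 in the SK4 libraries.

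SAMD9 had the largest log2 fold change of the 7, and also a wide spread. SAMD9 (ENSG00000205413.8, chromosome 7, 93099513 to 93118023) was at 4.15, 4.34 and 2.80 FPKM in control replicates 1 to 3, and at 6.23, 4.11 and 5.72 FPKM in SK4 replicates 1 to 3. SK4 replicates 1 and 3 were above every control, but SK4 replicate 2 was below control replicates 1 and 2, so the groups overlapped. The means were 3.76 ± 0.840 and 5.35 ± 1.11 FPKM, a log2 fold change of 0.46 (SE 0.19). Its paralogue SAMD9L (ENSG00000177409.12, 93130055 to 93148369), which lies beside it, had the same libraries high and low. It held 2.88, 2.79 and 1.73 FPKM in controls, against 3.56, 2.68 and 3.45 FPKM in the SK4 libraries. Again SK4 replicate 2 fell among the controls (log2 fold change 0.35, SE 0.18). The ratio of SAMD9 to SAMD9L was 1.54 ± 0.0900 in controls, against 1.65 ± 0.109 in the SK4 libraries, a difference about as large as the spread.

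RSAD2 (ENSG00000134321.13, chromosome 2, 6865806 to 6898239), which encodes the enzyme that turns CTP into a chain terminator, overlapped between the groups. It was at 13.66, 13.10 and 10.79 FPKM in controls, against 16.47, 12.62 and 13.53 FPKM in the SK4 libraries. SK4 replicate 1 alone was above the controls, and the other 2 SK4 libraries lay within their range (log2 fold change 0.17, SE 0.12). Without SK4 replicate 1 the log2 fold change of RSAD2 was 0.067. CMPK2, the nucleotide kinase gene next to RSAD2 on the opposite strand, held 11.03, 12.15 and 10.65 FPKM in controls, against 13.90, 12.12 and 13.50 FPKM in the SK4 libraries. Its log2 fold change was 0.22 (SE 0.072) and it was not called (limma adjusted p = 0.999973). The exons of these genes share 14 bases, so a shared count is at most a small part of either value.

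EIF2AK2 (ENSG00000055332.19, chromosome 2, 37099210 to 37157065) had the smallest fold change of the 7. The kinase gene was at 6.40, 6.26 and 4.74 FPKM in controls, against 6.45, 5.13 and 6.27 FPKM in the SK4 libraries. Control replicates 1 and 2 and SK4 replicates 1 and 3 held nearly the same level, and the low library of each group set its spread (log2 fold change 0.039, SE 0.13). XAF1 (ENSG00000132530.17, chromosome 17, 6755447 to 6775647) held 6.52, 6.88 and 5.06 FPKM in controls, against 7.76, 5.71 and 7.45 FPKM in the SK4 libraries. As for SAMD9, SK4 replicates 1 and 3 were above every control and SK4 replicate 2 was not (log2 fold change 0.17, SE 0.14, and 0.089 without SK4 replicate 1). An annotated transcript on the opposite strand, PRAL, covers 38.3% of the exon bases of XAF1. The sources used here do not say whether counting used the strand, so reads of PRAL may be part of the XAF1 value. PRAL itself was listed at 2.04 FPKM on average.

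Control replicate 3 and SK4 replicate 2 shifted the difference in opposite directions. Control replicate 3 was the lowest control for 7 of 7 genes, beside 62.0% of all tested genes, and SK4 replicate 2 was the lowest SK4 library for 7 of 7, beside 48.7%. Both held together for 41.0% of tested genes. Relative to the mean of the other 2 controls, control replicate 3 was 33.1% lower for SAMD9L, 30.4% lower for SAMD9, 23.3% for EIF2AK2, 22.8% for XAF1, 18.6% for RSAD2, 8.37% for MX2 and 4.04% for MX1 on the log2(FPKM + 0.5) scale. Relative to SK4 replicates 1 and 3, SK4 replicate 2 was 28.7% lower for SAMD9, 23.4% for XAF1, 20.6% for SAMD9L, 17.9% for EIF2AK2, 15.0% for RSAD2, 2.65% for MX2 and 0.156% for MX1. The MX genes were thus the least affected in both libraries. Estimated counting error in the shallowest value was 1.41% to 5.22% across the 7 genes. The shift of control replicate 3 was above it for each gene. In SK4 replicate 2 the shift of MX1 was below its estimate of 1.41%, and that of MX2 was close to its estimate of 2.72%. Both estimates belong to control replicate 3, and the error in SK4 replicate 2 was not estimated. Counting error does not include the other differences between separate libraries.

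**Figure D2:**
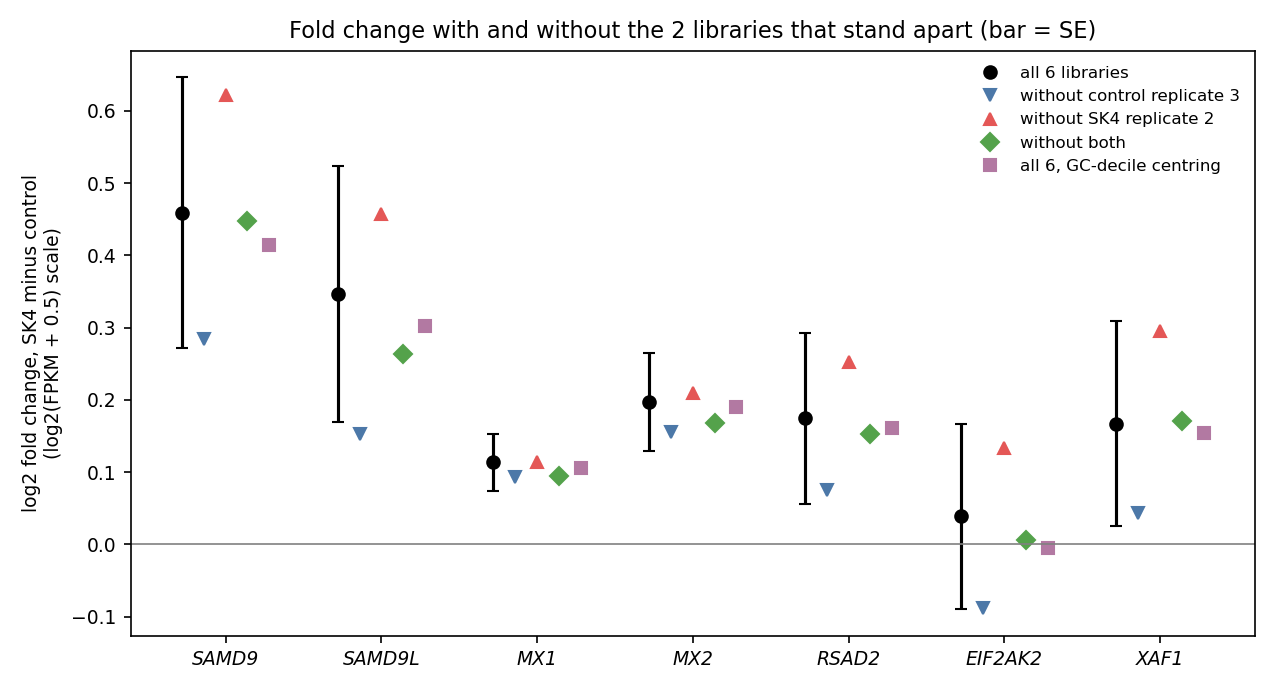
Log2 fold change (SK4 minus control, y axis, on the log2(FPKM + 0.5) scale) of each gene with all 6 libraries (black, bar is the SE), without control replicate 3, without SK4 replicate 2, without both, and after GC centring. Leaving out control replicate 3 lowers every value and leaving out SK4 replicate 2 raises every value, while leaving out both gives values between these.

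The median log2 fold change of the set was 0.17 with all libraries and 0.094 without control replicate 3. For SAMD9 it was 0.28, for SAMD9L 0.15, for MX2 0.15, for MX1 0.094, for RSAD2 0.075, for XAF1 0.043 and for EIF2AK2 -0.089. Without SK4 replicate 2 the median was 0.25, with SAMD9 at 0.62, SAMD9L at 0.46 and XAF1 at 0.30. Each of these libraries alone thus moved the median, in opposite senses, and for XAF1 the value changed from 0.043 to 0.30 according to which was left out. Such moves were not confined to them. Dropping SK4 replicate 1 lowered the median to 0.11. Removal of control replicate 1 raised it to 0.21, and that of control replicate 2 to 0.24. SK4 replicate 3 hardly mattered, with 0.18 in its absence. When control replicate 3 and SK4 replicate 2 were both left out, their shifts nearly cancelled in the median, which was 0.17, but not in every gene. SAMD9 stood at 0.45, XAF1 at 0.17, MX2 at 0.17, RSAD2 at 0.15 and MX1 at 0.094. SAMD9L was at 0.26, against 0.35 with all libraries, and EIF2AK2 at 0.0063, against 0.039. In these 4 libraries both SK4 values lay above both controls for SAMD9, SAMD9L, MX1, MX2 and XAF1. That is 5 of 7 genes, beside 13.8% of all tested genes. RSAD2 and EIF2AK2 still overlapped. The members were selected from this contrast, and for SAMD9, SAMD9L and XAF1 the left-out SK4 replicate 2 was what made the groups overlap. Nothing is read from this count.

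Across all tested genes the shift of both libraries was larger, at the median, where the transcripts had less GC, while the order among the 7 genes followed GC only in part. The longest transcript of SAMD9 has 36.0% GC, that of SAMD9L 38.5%, EIF2AK2 38.7%, RSAD2 41.8%, XAF1 43.0%, MX2 48.8% and MX1 52.4%. When tested genes were divided into GC quintiles, the median difference of control replicate 3 from the other controls was -0.29 in the lowest quintile (up to 41.7% GC), -0.21 in the second, -0.090 in the third and 0.023 in the highest. For SK4 replicate 2 it was -0.21, -0.12, -0.024 and 0.053 in the same quintiles. SAMD9, SAMD9L and EIF2AK2 are in the lowest quintile, RSAD2 and XAF1 in the second and the MX genes in the third. Among the members XAF1 shifted more than RSAD2 in both libraries although it has more GC, and in SK4 replicate 2 also more than SAMD9L and EIF2AK2. In the lowest quintile, control replicate 3 was the lowest control for 92.3% of genes and SK4 replicate 2 the lowest SK4 library for 88.3%.

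**Figure D3:**
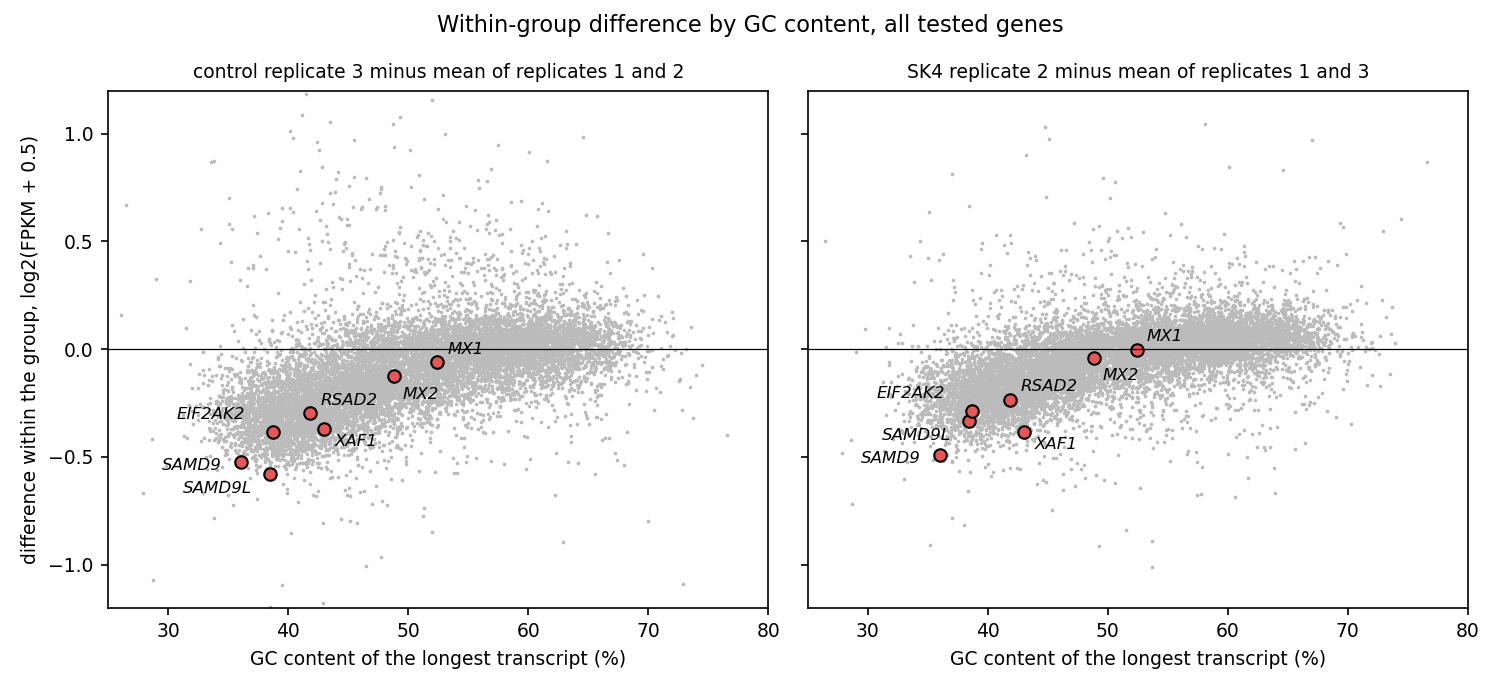
Difference of control replicate 3 (left) and SK4 replicate 2 (right) from the mean of the other 2 libraries of its group, in log2(FPKM + 0.5), against the GC content of the longest transcript, for all tested genes (grey) and the 7 genes (red). Genes beyond the axes (12 on the left, 5 on the right) are not drawn, and the 5 members of lowest GC lie below the 2 MX genes on both sides, with SAMD9 near the lower edge of the main body of grey points on both.

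The 5 members of lowest GC lay below most genes of their own GC quintile in both libraries that stood apart, and the MX genes near the middle of theirs. In control replicate 3, 2.62% of the lowest GC quintile had a lower difference than SAMD9 and 0.813% a lower one than SAMD9L. In SK4 replicate 2, 1.08% were lower than SAMD9 and 12.9% lower than SAMD9L. In the second quintile 12.6% were lower than XAF1 in control replicate 3 and 1.81% in SK4 replicate 2, and for RSAD2 the shares were 28.0% and 17.3%. For EIF2AK2 they were 22.5% and 24.3%, and for the MX genes they ran from 40.7% to 59.2%. Removing the median shift of each GC decile in each library lowered every fold change slightly. SAMD9 was at 0.42, SAMD9L at 0.30, MX2 at 0.19, RSAD2 at 0.16, XAF1 at 0.15 and MX1 at 0.11. EIF2AK2 changed sign, from 0.039 to -0.0055. The median became 0.16, against 0.17 with the values as deposited. This correction was chosen after seeing the data. Each group held a library with the shift, and how far base composition set the fold changes was not tested.

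The gene with the highest Pearson r of log2(FPKM + 0.5) over the 6 libraries was a different one for each member. It was taken from 5668 genes of at least 5 FPKM on average. For MX1 it was WARS1, the tryptophanyl-tRNA synthetase gene (r = 0.979), at 24.54, 25.37 and 23.71 FPKM in controls, against 26.40, 26.74 and 26.12 FPKM in the SK4 libraries. For MX2 it was the transcription factor gene FOXA2 (r = 0.980). EIF2AK2 was closest to TMEM167A (r = 0.999), and 648 genes exceeded 0.95 with it, against 7 for MX1 and 8 for MX2. XAF1 was closest to the autophagy gene GABARAPL1 (r = 0.998), SAMD9L to TIPRL (0.989), SAMD9 to the cytokine gene CLCF1 (0.986) and RSAD2 to TM2D2 (0.982). With only 6 libraries, among them control replicate 3 and SK4 replicate 2 with the shift above, such values are a description.

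Other genes of the pathway had mostly small positive fold changes, and none was called. In a list of 50 other interferon-induced antiviral effectors 47 were tested, 43 had a positive log2 fold change, and 0 were called in either direction (limma). Unadjusted p-values were below 0.05 for 8 of them (limma), beside 184 of 11139 tested genes, and 57.9% of all tested genes had a positive value. This list and those below were chosen with earlier results of these data known, so nothing is read from such counts. The median was 0.092, with a range from -0.027 to 0.25, beside 0.011 over all tested genes and 0.17 for the 7 members. IFI6, a mitochondrial and membrane protein induced by interferon, was the most abundant, at 1236 ± 38.6 and 1269 ± 18.2 FPKM. ISG15, the ubiquitin-like modifier, was at 825.5, 811.5 and 812.6 FPKM in controls, against 874.2, 900.1 and 866.04 FPKM in the SK4 libraries, without overlap (adjusted p = 0.999973). BST2, which tethers budding virions, was nearly equal (639.7 ± 9.09 and 638.3 ± 5.89 FPKM). In this list control replicate 3 was the lowest control for 34 of 47 genes. Without that library the median was 0.031 and 31 were positive, without SK4 replicate 2 as well it was 0.070 and 39 were positive, and without SK4 replicate 1 alone it was 0.053 and 38 were positive. Reads shared between near-identical family members such as IFITM1, IFITM2 and IFITM3 make their single values uncertain.

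**Figure D4:**
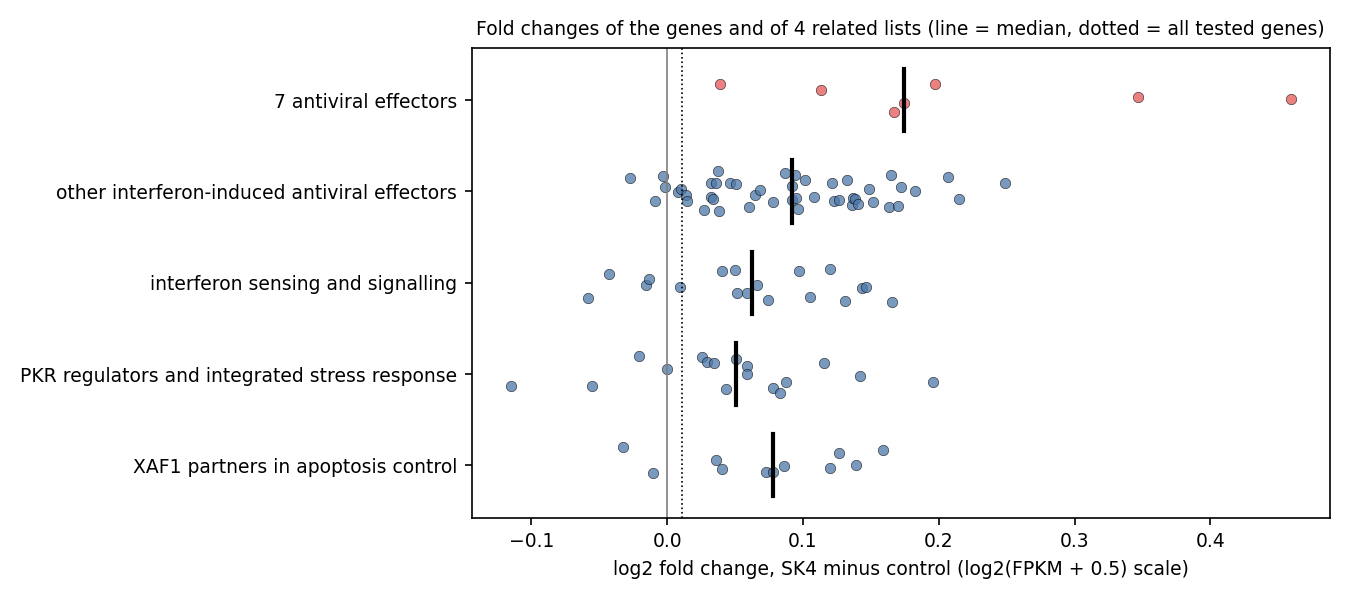
Log2 fold change (SK4 minus control, x axis) of each tested gene of the 7 antiviral effectors (red) and of 4 related lists (blue), 1 point per gene, with the median as a black line and the median of all tested genes as a dotted line; vertical scatter within a row carries no value. The medians are 0.17, 0.092, 0.062, 0.051 and 0.078 from top to bottom, all above the dotted line at 0.011.

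Genes that sense nucleic acid or carry the interferon signal had a median of 0.062 (18 of 22 tested, 14 positive, 0 called by limma, 1 at an unadjusted p below 0.05). Without control replicate 3 it was 0.030, with 11 of 18 positive, while without control replicate 2 it was 0.097 and without SK4 replicate 3 it was 0.094. The most abundant were STING1, the adaptor of cytosolic DNA sensing (40.5 ± 1.36 and 40.1 ± 1.08 FPKM), the feedback inhibitor SOCS3 (30.4 ± 0.626 and 30.1 ± 0.391 FPKM) and the transcription factor IRF3 (28.1 ± 0.242 and 28.9 ± 0.980 FPKM). Under the filter were the interferon gene IFNB1 at 0.16 to 0.42 FPKM, ZBP1, TLR3 and the transcription factor gene IRF9. IFNL1, the other interferon gene of this list, passed the filter. IRF9 was listed at 0.24 to 0.47 FPKM, but another gene model on its strand shares 1838 of its exon bases and was listed at 8.63 to 9.53 FPKM. How reads of such models were divided is not given in the sources used here, so the listed value cannot be taken as the level of IRF9. The 7 members share no exon bases with another annotated gene on their own strand.

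EIF2AK2 acts through the translation factor eIF2 and the integrated stress response. Of 18 genes of that branch 17 were tested, 14 were positive and 0 were called (limma), with 1 at an unadjusted p below 0.05. The median was 0.051. ATF4, the transcription factor translated when eIF2 is phosphorylated, was at 187.5 ± 8.08 and 190.8 ± 6.68 FPKM. The eIF2 subunit genes EIF2S2 (65.1 ± 9.03 and 67.5 ± 5.97 FPKM) and EIF2S3 (52.5 ± 6.69 and 52.3 ± 4.09 FPKM) overlapped between the groups. Without control replicate 3 the median of this list was -0.049, with 6 of 17 positive, so its sign changed with that library. Partners of XAF1 in apoptosis control had a median of 0.078 (11 of 12 tested, 9 positive, 0 called by limma, 0 at an unadjusted p below 0.05). BIRC5 (survivin) was at 36.8 ± 1.03 and 36.0 ± 1.15 FPKM, the protease gene HTRA2 at 16.1 ± 0.420 and 17.1 ± 1.49 FPKM, and the death ligand gene TNFSF10 at 15.3 ± 1.97 and 16.2 ± 2.87 FPKM. Without control replicate 3 the median of these partners was 0.015, without SK4 replicate 1 it was 0.030, without SK4 replicate 3 it was 0.043 and without SK4 replicate 2 it was 0.13. DIABLO, which releases caspases from inhibition, was under the filter at 0.08 to 0.19 FPKM. It too shares exon bases (2006) with a model on its strand that was listed at 31.74 to 34.23 FPKM.

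The nearest tested genes on either side that do not overlap a given member did not share a direction. Such a gene could be far away, up to 3284886 bases for RPS7 below RSAD2. Left out were CMPK2, GPATCH11 and PRAL, which overlap RSAD2, EIF2AK2 and XAF1 on the opposite strand and had log2 fold changes of 0.22, 0.22 and 0.17, none of them called (limma). Of 11 such neighbours 7 had a positive log2 fold change and the median was 0.0083, but with trimmed-mean scaling 5 were positive and it was -0.0018. With the deposited scaling 0 were called or had an unadjusted p below 0.05 (limma). Beside SAMD9 and SAMD9L, the cell cycle kinase gene CDK6 held 3.29, 3.27 and 2.21 FPKM in controls, against 3.64, 2.57 and 3.30 FPKM in the SK4 libraries, with the same 2 libraries low. VPS50, on the other side, was at 1.25 ± 0.149 and 1.44 ± 0.265 FPKM. Beside the MX genes, BACE2 was at 1.17 ± 0.0781 and 1.10 ± 0.0802 FPKM, and RIPK4, a kinase gene of epithelia, at 2.91, 3.00 and 2.46 FPKM in controls, against 3.11, 3.06 and 3.02 FPKM in the SK4 libraries, without overlap. The transcript AP001610.5, whose exons share 236 bases with MX1 on the opposite strand, was at 3.73 ± 0.795 and 4.30 ± 0.698 FPKM. RNF144A beside RSAD2 (1.79 ± 0.151 and 1.80 ± 0.0346 FPKM) and HEATR5B beside EIF2AK2 (1.01 ± 0.212 and 1.01 ± 0.217 FPKM) had nearly equal means. On their other sides, RPS7 was at 197.1 ± 9.16 and 193.1 ± 3.92 FPKM, and CEBPZOS at 10.2 ± 1.45 and 10.8 ± 1.42 FPKM. Both neighbours of XAF1 had negative log2 fold changes. MED31 was at 5.74 ± 0.338 and 5.28 ± 0.336 FPKM (-0.11), and RP11-589P10.7 at 3.30 ± 0.482 and 2.51 ± 0.738 FPKM (-0.36).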

How the data were processed

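Polyadenylated RNA from 6 libraries was sequenced as strand-marked 150 nt read pairs, per the labels' protocols. Per the submitters' processing notes, HISAT2 and GRCh38 were used. The sources used here do not give versions, the counting tool or the annotation. FPKM values with 2 decimals are the unit of the single table deposited by the authors. Depth was estimated from short single-exon genes, in which 99.4% to 99.5% of the low values were whole fragments within 0.1. Member fragment numbers also assume GENCODE 29 exon lengths, and cover counting error only.

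Groups were taken from the titles. Values were taken as log2(FPKM + 0.5), for genes of at least 1 FPKM in at least 3 libraries, and compared with limma 3.58.1 in R 4.3.3 (trended, robust prior; group as the only term; called at an adjusted p below 0.05 over all tested genes). The fit was tested on simulated data. Members and lists were chosen with earlier results of these data known. Named were the members, KCNN4, CMPK2, and the 3 most abundant tested genes and any called gene of each list. The closest gene by r and the chromosomal neighbours were named too. Genes under the filter, IFNL1, PRAL, GPATCH11, DIABLO, overlapping gene models and marker genes were named after values were seen. Neighbours, exon overlaps and GC content came from GENCODE 29 (GRCh38), which gave GC for 99.3% of tested genes. Alternatives covered the pseudocount, filter, scaling (trimmed mean of M-values, written out without a count model), weights, prior, replicate block, threshold and left-out libraries. Replicate numbers were not taken as pairs.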

Additional observations from a re-analysis of the deposited data

How the results depend on the processing

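KCNN4 was called under all 18 alternatives, and the median of the 7 genes stayed positive, from 0.094 without control replicate 3 to 0.25 without SK4 replicate 2. The number of called genes was 1 in every setting except without both control replicate 3 and SK4 replicate 2, where it was 4, none of them a member. Fewer libraries entered that fit, and the cause was not tested. Leaving out each library in turn gave medians from -0.049 to 0.091 for the stress response list and from -0.046 to 0.10 for the chromosomal neighbours, which therefore had no settled sign. With library weights the stress response median was -0.0040, and EIF2AK2 was negative with weights (-0.011), after GC centring (-0.0055), without control replicate 3 (-0.089) and without SK4 replicate 1 (-0.018). At a mean of at least 5 FPKM, 4 of the 7 genes were left (median 0.14). With the replicate number as a block 1 gene was called and the median of the 7 was 0.17. Deviations of same-numbered libraries correlated at 0.306, -0.410 and -0.154 for numbers 1 to 3, and the numbers were not taken as pairs. The highest value was 0.528, between control replicate 3 and SK4 replicate 2, which share the shift at low GC. Such correlations cannot decide whether the samples were paired. The depth, an estimate, limits the lowest member most: SAMD9L rested on about 367 fragments in control replicate 3.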

Other observations

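Within the SK4 group, 5 of the 7 genes (SAMD9, SAMD9L, RSAD2, EIF2AK2 and XAF1) had the order replicate 1 above replicate 3 above replicate 2, which is also the order of KCNN4 (184.1, 169.2 and 147.7 FPKM). Of all tested genes 34.6% had it, and of those in the lowest GC quintile 68.2%. The MX genes, which have more GC, did not. The part of base composition in this order was not tested.

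The mean log2(FPKM + 0.5) of the 7 genes stood at 2.84, 2.85 and 2.51 for the control libraries in the order of their numbers, and at 3.06, 2.78 and 3.00 for the SK4 libraries. SK4 replicate 2 was below 2 of the 3 controls. It is also one of the libraries with the shift at low GC, and the part of that shift in this order was not tested.

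The MX1 to MX2 ratio was lower in every SK4 library than in every control library (5.05 ± 0.119 against 5.44 ± 0.193, SD, n = 3 each). It was noticed after the values were seen and was not tested.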
